A study of Mus musculus with 23 samples.

Results

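Circulating immature myeloid cells of mice carrying CT26 tumours were compared between day 8 and day 0 of tumour growth. The comparison rests on 6 of the 23 libraries of the series, the 3 labelled CT26 day 8 and the 3 labelled CT26 day 0, and on every gene of the CT26 table. The table holds 24421 genes, and 11373 had a mean of at least 5 normalized counts over the 12 CT26 libraries and were tested. CT26 is a colon carcinoma line, and the labels give the strain of these mice as Balbc (BALB/c). The day 8 libraries come from peripheral blood on day 8 of CT26 growth, and the day 0 libraries from peripheral blood on day 0 in the same strain. Cells were separated from blood with magnetic beads and are labelled both as MDSCs and as immature myeloid cells, and their RNA was sequenced from poly-A transcripts. The series also holds CT26 days 4 and 11, which enter the fit of variance, and a B16 tumour series. The sources used here call the 3 libraries of a group biological repeats and do not give the antibody on the beads, the age or sex of the mice, the way the tumour was given, what day 0 mice received, or whether blood was pooled. If the repeats were not separate animals, the p-values measure only the spread between these libraries.

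Immature myeloid cells, also called myeloid-derived suppressor cells, are neutrophil-like and monocyte-like cells that leave the bone marrow in larger numbers when a tumour or an inflammation raises growth factors such as G-CSF and GM-CSF. They are known for suppressing T cells through arginase, nitric oxide and other products, and for granule proteins, calgranulins and chemoattractant receptors shared with neutrophils. Interferons switch on a separate set of genes in the same cells through STAT and IRF factors, and handling, adhesion or growth factor signals switch on short-lived immediate early genes such as Fos and Egr1.

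Values are normalized counts, that is, reads per gene divided by 1 factor per library. The day 8 libraries held 11955124, 12037204 and 12475589 normalized counts in total and the day 0 libraries 10703698, 10781539 and 10759904. Libraries of the same day correlated with r of 0.988 to 0.992 and libraries of the 2 days with 0.964 to 0.969 on the log2 scale, across genes, which are not independent replicates. The myeloid part of the label was checked against a list of 20 neutrophil markers, and all 20 were detected in every library. Their summed level was 807668, 874708 and 927155 normalized counts on day 8 and 662224, 600042 and 570297 on day 0. The 6 libraries thus carry neutrophil markers, but mature neutrophils share these, so the check cannot tell whether the cells were immature. Of the primary granule and promyelocyte genes, Mpo, Elane, Ctsg, Ms4a3, Fcnb and Bpi were too low to be tested. Markers of eosinophils, B cells and tissue macrophages were also present and changed between the days, as given below.

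Of the 11373 genes tested, 1712 (15.1%) were higher and 1344 (11.8%) were lower on day 8, together 3056 (26.9%) at an adjusted p under 0.05 in limma. More than 2-fold changes were called in 471 genes upward and 343 downward. Of the 2205 genes with a mean of at least 1000 normalized counts on day 8 or day 0, 43.1% were called in either direction. Lists of abundant genes thus tend to hold more calls than the share over all genes. The list counts below are to be read beside 15.1% higher and 11.8% lower, and some lie near these shares. All 3 day 8 libraries lay above all 3 day 0 libraries in 2743 genes (24.1%) and below them in 2649 (23.3%). On the recovered reads of 2 libraries per day, edgeR called 883 genes higher and 523 lower and DESeq2 884 and 376. Most list counts below were smaller with these tools. Reads of day 8 replicate 1 and day 0 replicate 3 were not recovered. The edgeR and DESeq2 results therefore rest on day 8 replicates 2 and 3 and day 0 replicates 1 and 2. The split of the calls depends on how the libraries are scaled. The day 8 libraries hold more counts in total, and with every library set to the same total the calls were 1161 higher and 2776 lower, with the median log2 change of all genes at -0.185 in place of -0.011. Changes below are on the scale of log2(normalized counts + 1), day 8 minus day 0, ± standard error, which understates the change of low genes, and a value of 3 libraries is given in the order of replicates 1 to 3.

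**Figure D1:**
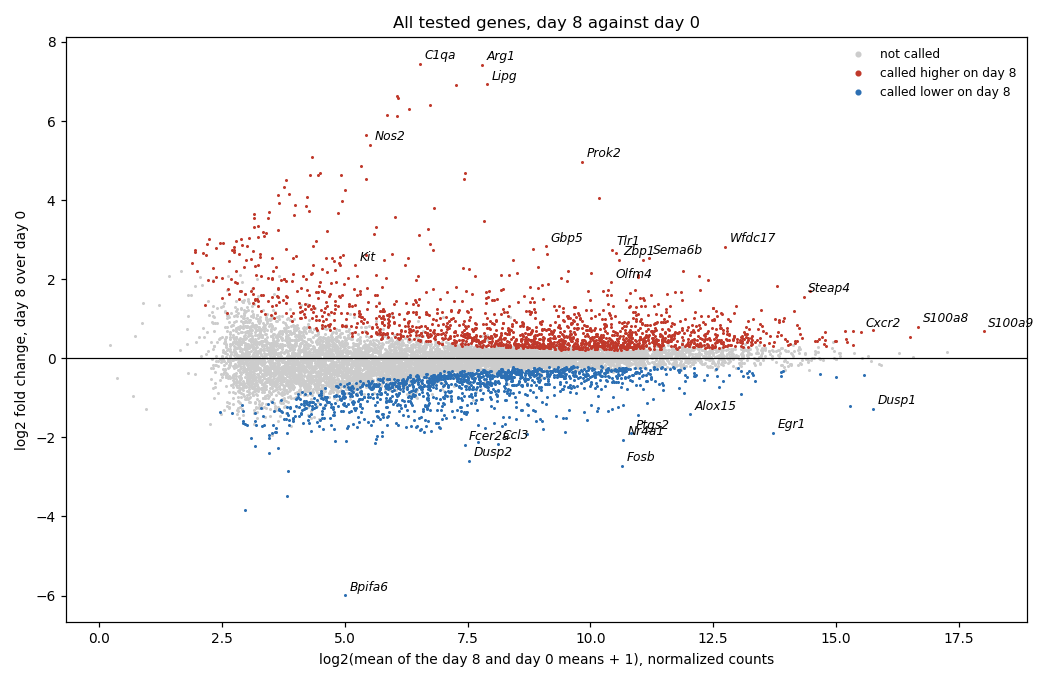
Each point is 1 of the 11373 tested genes, with the log2 level averaged over day 8 and day 0 on the x axis and the log2 fold change, day 8 over day 0, on the y axis. The 1712 genes called higher (red) reach larger changes than the 1344 called lower (blue), and the calls extend to abundant genes such as S100a8, S100a9 and Dusp1.

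The 12 highest-ranked rises by moderated t are given first. They were taken from called genes without overlap between the days and with a mean of at least 50 on the higher day. Their lack of overlap was therefore set by the choice. Tlr1, which encodes a Toll-like receptor that pairs with Tlr2 to bind bacterial lipopeptides (chromosome 5, 64924679 to 64933563, minus strand, GRCm38), had 2309, 2340.5 and 2636 normalized counts on day 8, against 369, 349 and 369 on day 0. The day 8 libraries were all above the day 0 libraries and lay close together (log2 2.74 ± 0.096, adjusted p = 1.46e-11). Sema6b, a transmembrane semaphorin gene, had 3929.8, 3946 and 4016 normalized counts on day 8 and 623, 720.2 and 721 on day 0 (log2 2.53 ± 0.094, adjusted p = 1.9e-11). Prok2 encodes prokineticin 2, a small secreted protein that neutrophils make in response to G-CSF. Its level was 1154, 1926 and 2214 on day 8 and 52.2, 50.1 and 58.7 on day 0, again with no overlap, and day 8 replicate 1 was the lowest of its group (log2 4.96 ± 0.19, adjusted p = 1.9e-11). Lipg, the gene of endothelial lipase, was near the floor on day 0 with 1.77, 5.46 and 1.99 normalized counts and had 334, 469 and 617 on day 8 (log2 6.93 ± 0.29, adjusted p = 4.81e-11).

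The other 8 of the 12 highest-ranked rises follow. Wfdc17, a gene of a small secreted protein of myeloid cells, had 10473, 12816 and 12789 normalized counts on day 8 and 1837, 1597 and 1673 on day 0 (log2 2.82 ± 0.13, adjusted p = 2.64e-10). Irg1 encodes the enzyme that makes itaconate from a Krebs cycle intermediate in activated phagocytes, and had 3662, 3468 and 3811 on day 8 against 645, 665 and 627 on day 0 (log2 2.50 ± 0.13, adjusted p = 5.78e-10). Soat2, which esterifies cholesterol, stood at 1507, 1511 and 1518 on day 8 against 455, 483 and 459.6 on day 0, with the narrowest spread of the group (log2 1.70 ± 0.085, adjusted p = 4.79e-10). Igfbp6 (2.64 ± 0.12), an insulin-like growth factor binding protein gene, Upp1 (2.66 ± 0.13), a uridine phosphorylase gene, Entpd3 (1.72 ± 0.091), an ectonucleotidase gene, Pam (2.49 ± 0.13), which encodes a peptide-amidating enzyme, and 6330416G13Rik (2.04 ± 0.091) completed the group.

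The 12 highest-ranked falls by moderated t, chosen by the same rule, included Nr4a1, Fosb and Ptgs2. Nr4a1, an orphan nuclear receptor gene that non-classical monocytes also need, had 579.7, 679 and 617 normalized counts on day 8, against 2455, 2707 and 2654 on day 0 (log2 -2.06 ± 0.080, adjusted p = 2.07e-11). Fosb, an AP-1 factor gene, had 414, 409 and 445 on day 8 and 2531, 2849.7 and 3005 on day 0 (log2 -2.72 ± 0.11, adjusted p = 4.84e-11), and the groups of both genes were far apart. Ptgs2, the inducible prostaglandin synthase gene, had 859.5, 847 and 627 on day 8 and 2919, 3077 and 2624 on day 0 (log2 -1.90 ± 0.12, adjusted p = 7.28e-09). Ppp1r15a (-1.33 ± 0.077), Atf3 (-1.33 ± 0.084) and Plk3 (-1.51 ± 0.099), which act in stress responses, fell with them. Further members of the 12 were Sema7a (-1.26 ± 0.080), a membrane-anchored semaphorin gene, Itgb3 (-1.50 ± 0.096), which encodes the beta-3 integrin chain, Anxa6 (-1.18 ± 0.076), Arl4c (-1.52 ± 0.100) and Sept1 (-1.31 ± 0.091). Bpifa6, of the BPI-fold family, was listed at 0 in the 3 day 8 libraries and at 66.3, 61.9 and 59.7 in the day 0 libraries. By fold change among genes of at least 100 normalized counts on either day, Selm (-2.11 ± 0.20), Inpp5j (-1.88 ± 0.27), an inositol phosphatase gene, Trerf1 (-1.87 ± 0.25), a transcriptional regulator gene, and the genes Fcer2a, Dusp2, Ccl3, Cxcl2, Egr1 and Gfi1b described below joined the falls.

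The largest differences of mean level upward were in S100a9, S100a8 and Lcp1. S100a9, the larger calgranulin gene, had 285586, 326772 and 355279 normalized counts on day 8 and 248864, 193476 and 166650.0 on day 0 (log2 0.68 ± 0.20, adjusted p = 0.0162). This call ended when day 8 replicate 2 or 3, or day 0 replicate 2 or 3, was left out, with changes of 0.55 to 0.67 and adjusted p of 0.0587 to 0.116, and without the filter on low values. S100a8 had 115929, 136546 and 142591 on day 8 and 92258, 73330.3 and 62989.7 on day 0 (log2 0.80 ± 0.18, adjusted p = 0.00254). Lcp1, which encodes the actin-bundling protein L-plastin, had 105780.0, 109496 and 116125 on day 8 and 74769.6, 76745 and 74690.5 on day 0 (log2 0.55 ± 0.14, adjusted p = 0.00815). The schlafen gene Slfn4 (0.71 ± 0.14), the leucine-rich glycoprotein gene Lrg1 (1.71 ± 0.12), the metalloreductase gene Steap4 (1.56 ± 0.12), Mxd1 (0.69 ± 0.11), a MAX-binding repressor gene, Grina (0.68 ± 0.13) and Ifitm1 (1.83 ± 0.11) were the other large differences upward. Downward, the largest were Dusp1, a MAP kinase phosphatase gene with 33093, 31217 and 32191 on day 8 against 76066, 78708 and 78932 on day 0 (log2 -1.28 ± 0.12, adjusted p = 5.96e-07), and Fos with 24298, 24313 and 24031 on day 8 against 54399.5, 57523 and 56130.0 on day 0 (log2 -1.21 ± 0.11, adjusted p = 2.5e-07). The chemokine gene Ccl6 (-0.47 ± 0.10), the lysosomal gene Psap (-0.39 ± 0.12) and the regulator genes Klf2 (-0.45 ± 0.11), Btg2 (-0.59 ± 0.091) and Zfp36 (-0.42 ± 0.11) fell by smaller amounts. The call of Psap ended without any 1 of the day 8 replicates, without day 0 replicate 1 and without day 0 replicate 2, at changes of -0.37 to -0.41, and that of Zfp36 without day 8 replicate 3 or day 0 replicate 3, at -0.39 each.

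Chemoattractant receptors moved in both directions. Of 24 tested, 12 were higher and 6 lower, with a median of 0.40 against -0.011 over all genes. Cxcr2, the main neutrophil receptor for CXCL chemokines, had 56025, 56257 and 58863 normalized counts on day 8 and 36173, 36577 and 35157 on day 0 (log2 0.67 ± 0.12, adjusted p = 0.000691). Its paralog Cxcr1 had 776, 893 and 975 on day 8 and 242, 228 and 247 on day 0, a larger relative change at a far lower level of counts (log2 1.87 ± 0.10, adjusted p = 1.33e-09). The formyl peptide receptor genes Fpr1 (0.66 ± 0.10) and Fpr2 (0.69 ± 0.10), the leukotriene B4 receptor gene Ltb4r1 (0.86 ± 0.11), the complement C5a receptor gene C5ar1 (0.40 ± 0.099) and the chemokine receptor genes Ccr1 (0.41 ± 0.093) and Ccr2 (0.84 ± 0.18) rose as well. Cxcr4, which holds neutrophils in the bone marrow, had 6158, 5992 and 5735 on day 8 and 11137, 11201 and 10918 on day 0 (log2 -0.90 ± 0.082, adjusted p = 4.4e-07). Ccrl2 (-1.13 ± 0.12), Cxcr3 (-1.22 ± 0.21), Ccr7 (-1.19 ± 0.28), Cx3cr1 (-1.66 ± 0.32) and Ccr3 (-1.44 ± 0.14) also fell, and Ccr3 is a marker of eosinophils, a list in which 10 of 12 tested genes fell. In RNA of a mixed population, fewer cells of a type and less RNA per cell cannot be told apart.

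Adhesion genes were mostly lower where they were called. Of 28 integrin, selectin and ligand genes tested, 5 rose and 9 fell, where 15.1% of all genes were called higher and 11.8% lower. The selectin ligand gene Selplg (0.49 ± 0.13) and the "do not eat me" signal gene Cd47 (0.49 ± 0.099) rose. Itgax, the gene of CD11c, had 1688, 1626 and 1561 on day 8 and 3253, 3371 and 3341 on day 0 (log2 -1.03 ± 0.077, adjusted p = 3.35e-08). Itga2 (-2.15 ± 0.31), Itgad (-1.68 ± 0.36), Itgb7 (-0.98 ± 0.081), Spn (-0.87 ± 0.12) and Pecam1 (-0.83 ± 0.15) were lower with it. Itgam, the gene of the CD11b chain that defines these cells, had 25932, 24532 and 26786 on day 8 and 23445, 26453 and 26468 on day 0, overlapping groups with no call (log2 0.018 ± 0.10, adjusted p = 0.919, and -0.16 with all libraries at the same total).

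Genes of microbial and damage recognition rose more often than they fell. Of 24 Toll-like receptor and adaptor genes 11 rose and 3 fell (10 and 6 with all libraries at the same total). Tlr4 (0.88 ± 0.11) and Tlr2 (0.87 ± 0.099), receptors for lipopolysaccharide and lipopeptides, Tlr13 (0.69 ± 0.095) and Tlr6 (0.67 ± 0.084), the adaptor genes Myd88 (0.68 ± 0.11) and Tirap (0.55 ± 0.12), and the lipopolysaccharide carrier genes Cd14 (0.57 ± 0.081) and Lbp (2.88 ± 0.20) rose, while the kinase genes Irak1 (-0.43 ± 0.082) and Irak2 (-0.45 ± 0.084) were among those that fell. Of 37 C-type lectin, TREM and paired receptor genes, 17 rose and 3 fell (13 and 9 with all libraries at the same total, and 9 rises in edgeR). Clec4e, the receptor Mincle for mycobacterial glycolipid and dead cells, had 6302, 6544 and 7102 normalized counts on day 8 and 3381, 3159 and 2923 on day 0 (log2 1.08 ± 0.088, adjusted p = 1.02e-07). Clec4n (0.79 ± 0.13), Cd33 (0.74 ± 0.15), Cd300lf (0.59 ± 0.095) and Lilrb4a (0.63 ± 0.11) rose, and the receptor genes Clec12a (-0.50 ± 0.094) and Cd300a (-0.46 ± 0.078) fell. Among 11 Fc receptor genes, the high-affinity IgG receptor gene Fcgr1 (1.6 ± 0.28) and Fcgr4 (0.46 ± 0.087) rose, while Fcer2a (-2.19 ± 0.19) and Fcmr (-1.68 ± 0.19), which B cells express, fell.

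Of 23 inflammasome genes 5 rose and 2 fell, where 15.1% of all genes were called higher and 11.8% lower. The counts turned to 5 and 7 with all libraries at the same total. The sensor and caspase genes Nlrc5 (2.31 ± 0.19), Casp4 (1.6 ± 0.11), Casp1 (1.08 ± 0.12), Mefv (0.92 ± 0.10) and Nlrp12 (0.54 ± 0.10) rose, and the DNA sensor gene Aim2 (-0.64 ± 0.11) fell. Il1b, the gene of interleukin-1 beta, had 56614, 59070.3 and 59903 normalized counts on day 8 and 72841, 66545 and 58233 on day 0, with no call (log2 -0.16 ± 0.14, adjusted p = 0.4), although it was called lower, at -0.34, with all libraries at the same total. In the interleukin-1 family, the decoy receptor gene Il1r2 had 2752, 2740.4 and 2463 on day 8 and 1317, 1212 and 1188 on day 0 (log2 1.10 ± 0.072, adjusted p = 8.34e-09). Il18bp, which encodes an inhibitor of interleukin-18, had 864, 757 and 805 on day 8 and 212, 213 and 243 on day 0 (log2 1.86 ± 0.13, adjusted p = 2.08e-08). Il1rap (0.79 ± 0.11), Il18rap (0.76 ± 0.088), Il18r1 (1.04 ± 0.13) and the ligand gene Il1f9 (0.52 ± 0.10) rose, 6 rises and 2 falls of 13 in that family, where edgeR and DESeq2 called no fall.

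Receptors for haematopoietic cytokines rose in 17 of 32 tested genes and fell in 1, with 8 rises in edgeR and 11 in DESeq2. Il4ra, the chain that receives interleukins 4 and 13, had 7149, 7334 and 7732 normalized counts on day 8 and 2283, 2266 and 2171 on day 0 (log2 1.72 ± 0.097, adjusted p = 1.55e-09). Its partner chain gene Il13ra1 had 7872, 7986 and 8544 on day 8 and 3483, 3404 and 3146 on day 0 (log2 1.28 ± 0.097, adjusted p = 4.19e-08). The shared beta chain gene for GM-CSF and interleukins 3 and 5, Csf2rb, had 19533, 18668 and 20299.9 on day 8 and 8778, 10199.9 and 10774 on day 0 (log2 0.98 ± 0.12, adjusted p = 1.25e-05). All 3 genes were higher in every day 8 library than in every day 0 library. Csf2rb2 (1.31 ± 0.10), Ifngr1 (0.75 ± 0.098) and Tnfrsf1a (0.41 ± 0.10) rose as well, and the eosinophil receptor gene Il5ra (-1.63 ± 0.14) was the member that fell. Csf3r, the G-CSF receptor gene, was not called, with 168253, 161113 and 164355 on day 8 and 132766, 150325 and 160017 on day 0 (log2 0.16 ± 0.17, adjusted p = 0.516). Csf2rb and Csf2rb2 are near-identical genes, so their reads may have been split uncertainly.

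Of 28 JAK, STAT, SOCS and PIM genes, 12 rose and 2 fell (11 and 9 with all libraries at the same total). Socs3, the feedback inhibitor that STAT3 induces below the G-CSF and interleukin-6 receptors, had 25459, 25519 and 25096 normalized counts on day 8 and 10925, 11284 and 11053 on day 0 (log2 1.19 ± 0.11, adjusted p = 3.14e-07). Stat3 (0.72 ± 0.098), Stat2 (1.65 ± 0.13), Jak3 (1.46 ± 0.096), Pim1 (0.60 ± 0.098), Bcl3 (0.82 ± 0.11) and Socs1 (0.90 ± 0.19) rose with it, and Pim3 (-0.73 ± 0.15) and Tyk2 (-0.33 ± 0.083) fell. Myeloid lineage transcription factors went the other way more often, with 7 rises and 15 falls among 46 tested. Hif1a, the oxygen-regulated factor gene, had 2995, 2854 and 3329 on day 8 and 1026, 1129.9 and 1057 on day 0 (log2 1.51 ± 0.100, adjusted p = 8.16e-09), and Klf13 (0.61 ± 0.094) rose. Gata1 (-1.53 ± 0.25) and Gfi1b (-1.85 ± 0.28), which eosinophil and megakaryocyte or erythroid precursors use, fell together with Lyl1 (-1.24 ± 0.087), Rxra (-0.83 ± 0.088) and Runx3 (-1.14 ± 0.15). Cebpe (-1.30 ± 0.13), which is counted among the eosinophil markers but is not specific to eosinophils, also fell. Spi1, Cebpa and Cebpb, central factors of granulocytes and monocytes, were not called, but each was in some setting. Cebpb was called lower with all libraries at the same total. With only the 6 day 8 and day 0 libraries, Cebpa was called lower (adjusted p = 0.00614) and Spi1 higher (adjusted p = 0.0168) in limma, and both calls were also made without CT26 day 11 replicate 1.

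Immediate early factors and their feedback regulators were lower on day 8 in most called members. Of 30 immediate early factor genes 13 fell and 7 rose, and of 29 feedback regulators 15 fell and 4 rose. In edgeR the falls numbered 8 and 11 and the rises 6 and 1, and DESeq2 also called 1 rise among feedback regulators. The rises among feedback regulators were 2 without day 8 replicate 1 or day 0 replicate 3. With all libraries at the same total, 20 immediate early factor genes fell and 5 rose, and 19 feedback regulators fell and 2 rose. Egr1, a zinc finger factor that growth factor signals switch on within minutes, had 5441, 6111 and 5576 normalized counts on day 8 and 18145, 22416 and 22786 on day 0 (log2 -1.88 ± 0.14, adjusted p = 4.09e-08). Dusp2, a nuclear MAP kinase phosphatase gene, had 45.0, 67.5 and 43.9 on day 8 and 335, 339.6 and 269 on day 0 (log2 -2.59 ± 0.19, adjusted p = 2.82e-08). Egr2 (-1.31 ± 0.20), Egr3 (-1.25 ± 0.30), Dusp6 (-0.88 ± 0.081), Dusp5 (-0.66 ± 0.13), Nfkbiz (-0.81 ± 0.083), Nfkbia (-0.46 ± 0.11), Tnfaip3 (-0.69 ± 0.084), Nfkbid (-0.70 ± 0.098) and Rgs1 (-2.10 ± 0.54) fell. The rises in the same lists were Zfp36l1 (1.48 ± 0.11), an RNA decay factor, Fosl2 (0.53 ± 0.10), Mafk (0.51 ± 0.11), Ier3 (0.52 ± 0.076), Gadd45a (0.47 ± 0.097) and Dusp16 (1.07 ± 0.096) among others, so the lists did not move as a whole.

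Of 29 myeloid cytokine and chemokine genes 8 rose and 8 fell, or 5 and 12 with all libraries at the same total. The rises were 5 without day 8 replicate 2 or 3 and 2 in both edgeR and DESeq2. Cxcl2, a neutrophil attractant gene, had 228, 181 and 127 normalized counts on day 8 and 740.2, 635 and 598 on day 0 (log2 -1.91 ± 0.29, adjusted p = 9.68e-05). Ccl3, a monocyte attractant gene, had 96.9, 118 and 87.7 on day 8 and 468, 464 and 419 on day 0, likewise without overlap (log2 -2.16 ± 0.29, adjusted p = 2.9e-05). Tnf (-0.85 ± 0.12), Tgfb1 (-0.59 ± 0.098) and the angiogenic factor gene Vegfa (-0.60 ± 0.083) fell. Hdc, which makes histamine and is abundant in these cells, had 18325, 18137 and 18887 on day 8 and 9474, 9309 and 9188 on day 0 (log2 0.98 ± 0.10, adjusted p = 1.54e-06). Tnfsf14 (0.67 ± 0.11) and, at low levels, Ccl24 (2.23 ± 0.49) and Ccl2 (2.57 ± 0.60) rose, and the calls of Ccl24 and Ccl2 ended in edgeR and DESeq2 (adjusted p of 0.0774 to 0.172).

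Interferon-induced genes rose almost throughout their lists. Of the type I interferon list, with 49 tested genes, 39 were called higher and 0 lower (median 0.68), and of 14 GTPase genes that interferon-gamma induces 13 rose and 0 fell (median 1.97), against 15.1% of all genes called higher. The GTPase products coat vacuoles that hold microbes. Gbp2, with the most counts among them, had 9735, 7726 and 8420.1 normalized counts on day 8 and 2253, 2249 and 2019 on day 0 (log2 1.98 ± 0.16, adjusted p = 7.49e-08). Gbp5 had 1137, 845 and 907 on day 8 and 124, 128 and 149 on day 0 (log2 2.83 ± 0.22, adjusted p = 6.92e-08), and Gbp3 had 884, 727 and 766 on day 8 and 125, 127 and 98.5 on day 0 (log2 2.76 ± 0.16, adjusted p = 2.71e-09). In each of the 3 genes every day 8 library was above every day 0 library. The immunity-related GTPase genes Igtp (1.47 ± 0.15), Irgm1 (1.31 ± 0.14), Irgm2 (1.12 ± 0.14) and Tgtp2 (2.04 ± 0.39) rose as well, and Gbp9 was the tested member with no call (log2 0.28 ± 0.11, adjusted p = 0.0663). Reads of neighbouring Gbp and Tgtp copies may have been split uncertainly.

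Of the type I set, Zbp1, a sensor of Z-form nucleic acid, had 3035, 2311 and 2478 normalized counts on day 8 and 449, 465 and 459.6 on day 0 (log2 2.50 ± 0.15, adjusted p = 2.71e-09). Oasl2 had 7358, 5548 and 5621 on day 8 and 1327, 1368 and 1307 on day 0 (log2 2.20 ± 0.12, adjusted p = 1.33e-09). Stat2, the STAT partner used by type I interferon, had 3195, 2452 and 2468 on day 8 and 837, 821 and 909 on day 0 (log2 1.65 ± 0.13, adjusted p = 9.97e-08). The 3 genes separated the days completely, and Ifitm3 (1.20 ± 0.10), Parp14 (1.06 ± 0.12), Trim30a (1.00 ± 0.10), Ifit1 (1.08 ± 0.12) and Herc6 (1.29 ± 0.15) did so at smaller changes. Antigen presentation genes of MHC class I rose in 10 of 21 tested and fell in 0, a count of 6 and 0 with all libraries at the same total. It was also 6 without day 8 replicate 1 or day 0 replicate 3, 5 in edgeR and 4 in DESeq2. They included the transporter gene Tap1 (0.89 ± 0.12), the immunoproteasome gene Psmb9 (0.75 ± 0.11) and the class I transactivator gene Nlrc5, which is also counted among the inflammasome genes. MHC class II genes gave 1 rise and 4 falls of 17 (9 falls with the 6 libraries alone), with the protease gene Ctss (1.23 ± 0.17) higher and the B cell chain genes H2-Oa (-1.6 ± 0.32) and H2-Ob (-1.19 ± 0.26) lower. B cell markers, 10 of 14 lower, moved with the class II falls, and their part in it was not tested.

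**Figure D2:**
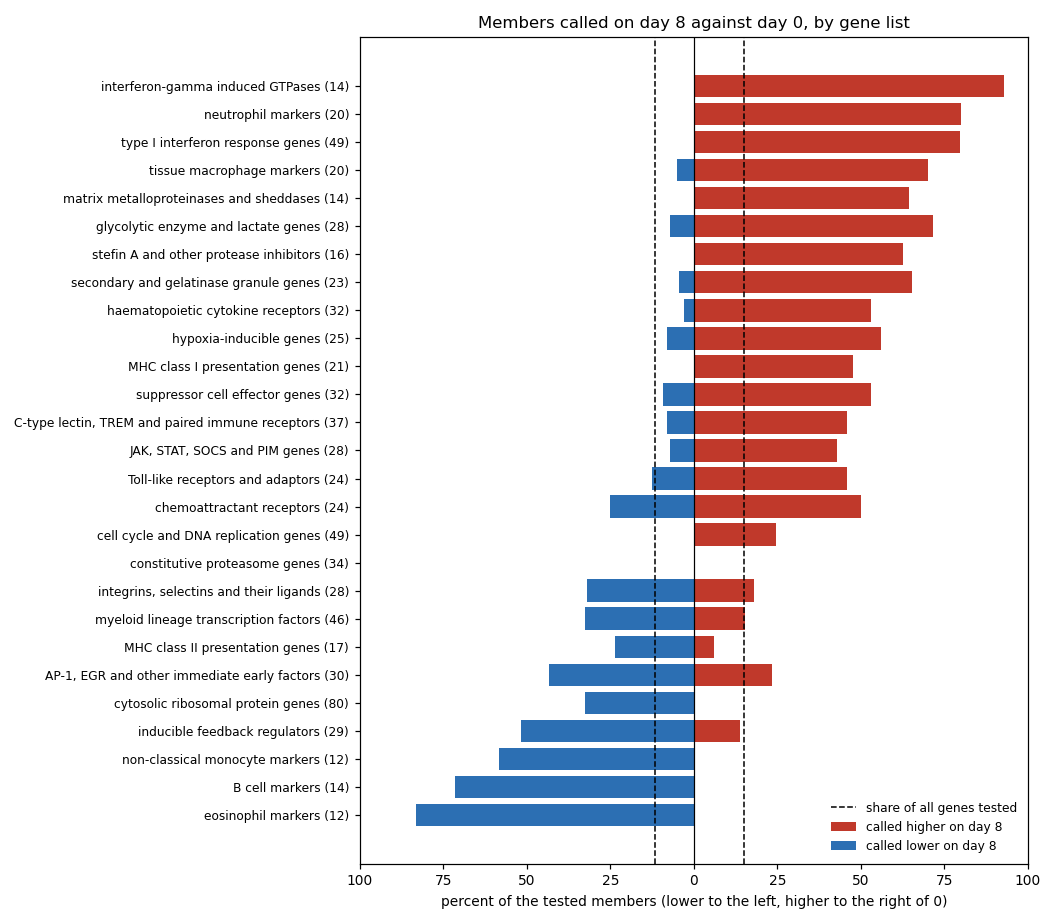
Bars give the percent of the tested members of each gene list called higher (red, to the right) or lower (blue, to the left) on day 8 against day 0, with the number tested in parentheses and dashed lines at the shares over all genes, 15.1% higher and 11.8% lower. The interferon-gamma GTPases have the longest bar to the right (13 of 14) and the eosinophil markers the longest to the left (10 of 12).

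The promoters of 3 of these interferon-responsive genes and of the glucose transporter gene Slc2a1 are shown because the members of their groups moved together. Sequences are RefSeq promoters of build GRCm38.p6 on the gene's strand, from 250 bases before to 50 bases after the start of the gene, and they are of the reference strain and not of the mice studied. Capitals in the first 3 mark GAAANNGAA, the main part of an interferon-stimulated response element, on either strand, and capitals in the last mark ACGTG, the core that hypoxia-inducible factors bind.
Gbp2 (chr3:142620413-142620712, plus strand): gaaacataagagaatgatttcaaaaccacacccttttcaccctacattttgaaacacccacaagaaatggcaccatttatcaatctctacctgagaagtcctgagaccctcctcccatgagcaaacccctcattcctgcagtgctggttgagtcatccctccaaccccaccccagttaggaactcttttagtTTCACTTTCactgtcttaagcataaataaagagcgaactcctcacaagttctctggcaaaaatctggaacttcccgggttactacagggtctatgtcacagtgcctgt
Gbp5 (chr3:142496684-142496983, plus strand): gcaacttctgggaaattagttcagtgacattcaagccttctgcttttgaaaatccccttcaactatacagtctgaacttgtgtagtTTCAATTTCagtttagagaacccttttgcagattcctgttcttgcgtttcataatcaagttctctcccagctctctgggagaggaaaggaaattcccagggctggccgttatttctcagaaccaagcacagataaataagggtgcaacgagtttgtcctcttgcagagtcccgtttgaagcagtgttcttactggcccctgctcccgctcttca
Stat2 (chr10:128270248-128270547, plus strand): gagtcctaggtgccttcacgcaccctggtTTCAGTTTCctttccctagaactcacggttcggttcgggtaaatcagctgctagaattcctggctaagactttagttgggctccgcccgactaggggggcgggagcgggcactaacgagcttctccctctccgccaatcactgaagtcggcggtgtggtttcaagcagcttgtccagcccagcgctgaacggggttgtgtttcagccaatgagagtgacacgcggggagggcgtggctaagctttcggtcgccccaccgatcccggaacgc
Slc2a1 (chr4:119108495-119108794, plus strand): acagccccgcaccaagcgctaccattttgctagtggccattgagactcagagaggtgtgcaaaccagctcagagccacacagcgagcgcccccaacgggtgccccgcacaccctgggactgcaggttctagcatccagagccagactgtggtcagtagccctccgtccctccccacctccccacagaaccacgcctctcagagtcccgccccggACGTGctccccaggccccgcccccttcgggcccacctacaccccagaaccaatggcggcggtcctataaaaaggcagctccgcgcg

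The marked interferon motif began 58, 164 and 221 bases before the start in Gbp2, Gbp5 and Stat2, each time as its reverse complement, and the ACGTG of Slc2a1 began 36 bases before the start. None of the 4 matches overlapped another motif searched. RefSeq promoters were at hand for 6995 of the 11373 tested genes, of which 7.72% held GAAANNGAA and 26.05% held ACGTG on either strand. Because under 80% of the genes of each list had a promoter, the shares within lists are void and are not given. A match is a description of the letters and not evidence of binding.

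Glycolytic genes rose in most members. Of 28 glycolytic enzyme and lactate genes 20 rose and 2 fell, with a median of 0.65. Slc2a1, the GLUT1 glucose transporter gene whose promoter is printed above, had 4079, 4178 and 4323 normalized counts on day 8 and 1775, 1711 and 1837 on day 0 (log2 1.24 ± 0.097, adjusted p = 6.71e-08). Pfkl, the liver-type phosphofructokinase gene at the committed step, had 649.6, 688 and 576 on day 8 and 242, 231 and 242 on day 0 (log2 1.41 ± 0.092, adjusted p = 7.28e-09). Ldha, which reduces pyruvate to lactate, had 3972, 4468 and 4471 on day 8 and 2921, 2748 and 2549.9 on day 0 (log2 0.65 ± 0.084, adjusted p = 1.75e-05). The days did not overlap in any of these. Gapdh (0.94 ± 0.10), Tpi1 (0.89 ± 0.095), Pgk1 (0.78 ± 0.10), Pkm (0.54 ± 0.11), Pfkfb3 (0.92 ± 0.078) and the lactate exporter gene Slc16a3 (0.74 ± 0.092) rose, as did the pyruvate dehydrogenase kinase genes Pdk1 (1.25 ± 0.16) and Pdk3 (1.13 ± 0.14), while the hexokinase gene Hk2 (-0.53 ± 0.083) was one of the falls. In the pentose phosphate and glycogen list 6 of 21 rose and 1 fell, or 5 and 6 with all libraries at the same total, and the rises included the glycogenin gene Gyg (1.70 ± 0.11) and the rate-limiting dehydrogenase gene G6pdx (1.01 ± 0.12).

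Hypoxia-inducible genes were higher in 14 and lower in 2 of 25 tested, or 8 and 3 with all libraries at the same total, and the rises were 6 in edgeR and 7 in DESeq2. Ankrd37 (2.08 ± 0.26), P4ha1 (1.54 ± 0.11) and the oxygen-sensing hydroxylase gene Egln3 (0.77 ± 0.091) rose beside Hif1a, whereas Ndrg1 (-0.50 ± 0.080) and Vegfa fell. The antioxidant list had 9 rises and 6 falls of 30, or 9 of each with all libraries at the same total. Its falls were 3 when any 1 day 8 or day 0 library other than day 8 replicate 2 was left out, and 3 in edgeR and in DESeq2. The glutathione synthesis gene Gclm (1.33 ± 0.15), the factor gene Nfe2l2 (1.10 ± 0.093), haem oxygenase Hmox1 (0.95 ± 0.19) and Txnrd1 (0.72 ± 0.096) rose, and catalase Cat (-1.56 ± 0.20), Gss (-0.84 ± 0.12) and Sod1 (-0.60 ± 0.12) fell. The call of Hmox1 ended in edgeR and in DESeq2. Of 11 NADPH oxidase genes 2 rose, among them the subunit gene Ncf4 (0.57 ± 0.083), and 3 fell, among them the proton channel gene Hvcn1 (-1.01 ± 0.17) and the subunit gene Ncf1 (-0.45 ± 0.074), or 2 and 6 with all libraries at the same total and 1 rise without any 1 of the 6 libraries.

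Lipid genes changed one by one. Of 38 fatty acid, lipid droplet and scavenger receptor genes 14 rose and 7 fell (9 and 7 with all libraries at the same total, and 8 rises in edgeR and in DESeq2). Besides Lipg, the scavenger receptor gene Msr1 (2.37 ± 0.50), the triglyceride synthesis gene Dgat2 (1.15 ± 0.091), the droplet coat gene Plin5 (0.99 ± 0.12) and Ppard (0.66 ± 0.11) rose, and G0s2 (-0.76 ± 0.091), Elovl5 (-0.87 ± 0.16) and Lpl (-0.86 ± 0.21) fell. Cholesterol genes gave 5 rises and 5 falls of 31, shares near the 15.1% higher and 11.8% lower over all genes. The counts were 3 and 7 with all libraries at the same total, with 3 falls without day 0 replicate 3. The efflux transporter gene Abca1 (1.71 ± 0.15) was higher and Scap (-0.91 ± 0.092) lower. In eicosanoid metabolism 7 of 24 rose and 5 fell, which turned to 6 and 8 with all libraries at the same total. Alox5ap (0.49 ± 0.11), the partner of 5-lipoxygenase, and Ltc4s (2.41 ± 0.60) rose. Beside Ptgs2, Lta4h (-0.65 ± 0.084), Tbxas1 (-0.99 ± 0.25), Pla2g4a (-0.70 ± 0.14) and Alox15 (-1.42 ± 0.40) fell, and Alox15 is also an eosinophil marker. Its call ended without day 8 replicate 3 (-1.20) or day 0 replicate 3 (-1.36), and in edgeR (adjusted p = 0.172) and DESeq2 (adjusted p = 0.418). The calls of Msr1, Lpl, Ltc4s and Tbxas1 also ended in both edgeR and DESeq2. Of 31 iron and haem genes 11 rose and 2 fell, or 8 and 5 with all libraries at the same total and 6 rises in edgeR and in DESeq2. Of 44 lysosome and autophagy genes 13 rose and 6 fell, which turned to 9 and 11 under that scaling, with 6 rises in edgeR. Ctsb (1.14 ± 0.13), Ctsl (1.4 ± 0.35) and Ctsc (1.43 ± 0.16), cathepsin genes, and Lamp2 (0.85 ± 0.082) were among the lysosomal rises. The call of Ctsl ended in edgeR and in DESeq2. Purine signalling genes gave 8 rises and 6 falls of 25. Other solute carriers gave 10 and 4 of 35, or 8 of each with all libraries at the same total, and the unfolded protein response gave 6 and 3 of 34, which turned to 4 and 6. The unfolded protein response counts were near the shares over all genes. Without day 8 replicate 3 the carriers had 2 falls and the unfolded protein response 3 rises.

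Genes of neutrophil granules and secreted defence proteins were higher in most members. Of 23 secondary and gelatinase granule genes 15 rose and 1 fell (median 0.86). Olfm4, the olfactomedin that marks a subset of neutrophils, had 1883, 2148 and 2473 normalized counts on day 8 and 553, 603 and 555 on day 0 (log2 1.92 ± 0.11, adjusted p = 1.55e-09). Lcn2, the siderophore-binding lipocalin gene, had 14057, 16777 and 17026 on day 8 and 7027, 6736 and 6817 on day 0 (log2 1.21 ± 0.11, adjusted p = 3.93e-07). Mmp8, neutrophil collagenase, had 12669, 14496 and 16321 on day 8 and 7792, 8000.2 and 7789 on day 0 (log2 0.88 ± 0.11, adjusted p = 1.97e-05). All were higher in each day 8 library. Ngp (1.46 ± 0.085), Ltf (1.30 ± 0.088), Camp (1.17 ± 0.12) and Cd177 (0.87 ± 0.11) rose as well. Of the primary granule genes, which promyelocytes make, Mpo, Elane and Ctsg were under the filter on low values. Prtn3, the gene of proteinase 3, had 51.0, 45.0 and 36.7 normalized counts on day 8 and 6.19, 10.02 and 4.97 on day 0 (log2 2.52 ± 0.35, adjusted p = 3.86e-05).

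Protease and inhibitor genes rose in 9 of 14 metalloproteinase and sheddase genes and 10 of 16 stefin and related inhibitor genes, with 0 and 0 falls. Adam19 (0.99 ± 0.12), Mmp19 (2.97 ± 0.41) and Mmp25 (0.59 ± 0.13) belong to the first list, which also counts Reck (1.45 ± 0.14), the gene of a metalloproteinase inhibitor. Stfa3 (1.79 ± 0.19), Stfa2 (1.30 ± 0.12), BC100530 (1.06 ± 0.11) and Wfdc21 (1.53 ± 0.13) belong to the second, in which near-identical copies share reads. Of 9 annexin genes 5 rose, with Anxa1, an anti-inflammatory annexin of neutrophil granules, at 17689, 20393 and 23352 normalized counts on day 8 and 12018, 10675 and 9310.1 on day 0 (log2 0.94 ± 0.13, adjusted p = 3.16e-05), and 2 fell, Anxa6 and Anxa5 (-0.85 ± 0.21). The call of Anxa5 ended in edgeR and in DESeq2. S100a10, which pairs with annexin A2, fell to 354, 348 and 301 on day 8, against 1036, 854 and 873 on day 0 (log2 -1.46 ± 0.29, adjusted p = 0.00129), opposite to S100a8 and S100a9.

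Survival and structure genes moved in both directions. Of 32 BCL2 family and survival genes 8 rose and 5 fell, which turned to 7 and 8 with all libraries at the same total, and the falls were 3 without day 8 replicate 3. Bcl2l1, which encodes the survival protein BCL-XL, had 845, 928 and 874 normalized counts on day 8 and 393, 356 and 381 on day 0 (log2 1.23 ± 0.082, adjusted p = 9.26e-09). The pro-death gene Pmaip1 had 649, 649.6 and 603 on day 8 and 1613, 1432 and 1254 on day 0 (log2 -1.17 ± 0.096, adjusted p = 1.05e-07), and Bbc3 (-0.54 ± 0.12) fell with it, while Birc3 (0.59 ± 0.077), Cflar (0.50 ± 0.091) and Xiap (0.39 ± 0.081), which block caspases, rose. Nuclear envelope genes diverged: the lamin B1 gene Lmnb1 and Lbr, the lamin B receptor gene that the lobed neutrophil nucleus needs, rose (1.00 ± 0.093 and 0.60 ± 0.10), and Lmna, the lamin A gene, had 108, 119.7 and 85.7 on day 8 against 342, 312 and 419 on day 0 (log2 -1.77 ± 0.30, adjusted p = 0.00025). Of 49 actin and motility genes 10 rose and 3 fell, which turned to 9 and 13 with all libraries at the same total and to 18 and 6 without CT26 day 11 replicate 1.

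Housekeeping lists gave few rises. Among genes of cytosolic ribosomal proteins 26 of 80 fell and 0 rose (median -0.26), among them Rplp0 (-0.56 ± 0.092) and Rpl19 (-0.57 ± 0.12). With all libraries at the same total 51 fell. The falls were 13 without day 8 replicate 1, 10 without day 8 replicate 3 and 10 without day 0 replicate 1, and 3 in edgeR and 7 in DESeq2. Falls numbered 9 of 75 for mitochondrial ribosomal and 7 of 78 for respiratory chain genes, near the 11.8% of all genes called lower. They were 1 in each list without day 8 replicate 3 and 0 in each in DESeq2. Cell cycle and replication genes, most of them at low levels, rose in 12 of 49 and fell in 0, with 8 rises at the same total, 4 in edgeR and 5 in DESeq2. Among the abundant ones were the cyclin gene Ccnd3 (1.01 ± 0.094) and the inhibitor gene Cdkn2d (1.16 ± 0.12). Top2a, a topoisomerase gene of dividing cells, had 32.0, 24.6 and 16.3 normalized counts on day 8 and 7.08, 6.37 and 5.97 on day 0 (log2 1.71 ± 0.43, adjusted p = 0.00636), and it was not called in edgeR or DESeq2 (adjusted p = 0.226 and 0.216). In the circadian list 2 of 16 rose, Nfil3 (1.12 ± 0.072) and Bhlhe41 (1.92 ± 0.44), and 4 fell, among them Tef (-1.53 ± 0.23), with 2 falls without day 0 replicate 3. The hour of blood collection is not given in the sources used here.

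Genes of suppressor function rose in 17 of 32 tested and fell in 3, with 11 rises in edgeR and 13 in DESeq2. Arg1, the arginase that depletes arginine, had 659.6, 503 and 161 normalized counts on day 8 and 4.42, 0 and 0.995 on day 0 (log2 7.42 ± 0.71, adjusted p = 6.4e-07). With day 0 at the floor, its fitted change depended on the pseudocount and was 5.87 with 5 and 7.93 with 0.5 added. Nos2, which makes nitric oxide from the same amino acid, had 82.0, 79.8 and 102 on day 8 and 0, 3.64 and 0.995 on day 0 (log2 5.40 ± 0.52, adjusted p = 7.22e-07). Cd274, the checkpoint ligand PD-L1, had 2972, 2102 and 2530.2 on day 8 and 934, 1065 and 1048 on day 0 (log2 1.31 ± 0.17, adjusted p = 2.65e-05). Each was higher in every day 8 library, yet the spread within day 8 differed: Arg1 varied 4.09-fold between the highest and lowest day 8 library and Nos2 1.28-fold. The ectonucleotidase gene Nt5e (1.13 ± 0.27) and the second arginase gene Arg2 (0.48 ± 0.084) were also higher. Wfdc17, Il4ra, Cxcr2, S100a8 and S100a9 are further members of the list, and their values are given above.

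Most tested genes known from tissue macrophages were higher on day 8. Of 20 tested 14 rose and 1 fell, while edgeR on the recovered reads of 2 libraries per day called 5 of 21 higher and DESeq2 10. The recovered reads leave out day 8 replicate 1, where the median of the called rises stood at 148% of the day 8 mean. The tool and the libraries thus changed together in these counts. C1qa, a chain of complement C1q, was listed at 0 in all 3 day 0 libraries and had 246, 194 and 109 normalized counts on day 8. Cd5l, an apoptosis inhibitor secreted by macrophages, had 229.9, 205 and 35.7 on day 8 against 0.884, 0.910 and 0 on day 0. Mrc1, the mannose receptor gene, had 126, 75.7 and 49.0 on day 8 against 0, 0.910 and 0.995 on day 0. C1qb, C1qc, Fcna, Timd4, Mertk, Folr2, Prg4 and Saa3 were also called higher from day 0 levels of at most 2.73 in any library. Genes this low on day 0 passed the filter on the mean only through other days, so the count of rises is partly set by the filter. The complement gene C4b, which is not on the list, had 471, 386 and 154 on day 8 and 10.6, 10.9 and 10.9 on day 0 (log2 4.69 ± 0.50, adjusted p = 2.52e-06), and the endothelin receptor gene Ednrb had 178, 121 and 43.9 on day 8 against 1.77, 0 and 0 on day 0. Adgre1, the gene of F4/80, which monocytes, macrophages and eosinophils express, went the other way, with 912, 818 and 708 on day 8 against 1902, 1965 and 2035 on day 0 (log2 -1.28 ± 0.28, adjusted p = 0.00222). The call of Adgre1 ended in edgeR and in DESeq2. Marco, Spic and Clec4f, markers of macrophages in particular organs, did not pass the filter on low values. The summed level of all 24 members was 24188, 23014 and 23268 on day 8 and 19469, 19189 and 17904 on day 0, most of it from Slc40a1, which was not called.

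The macrophage genes were unequal among the day 8 libraries in a way that granule, glycolysis and interferon genes were not. All 14 called rises of the macrophage list were lowest in day 8 replicate 3, where the median gene stood at 54.7% of its day 8 mean, against 148% in replicate 1 and 106% in replicate 2. Arg1 was also lowest there, with 149%, 114% and 36.5% of its day 8 mean in replicates 1, 2 and 3. The 15 granule genes that rose had medians of 96.3%, 99.8% and 107%, and none was lowest in replicate 3. The 20 glycolysis genes had medians of 96.7%, 103% and 103%, and the 39 interferon genes 109%, 94.2% and 97.3%. Lipg (70.5%, 99.01% and 130%), Prok2 (65.4%, 109% and 125%) and Kit (74.2%, 103% and 123%) had their highest day 8 value in replicate 3. Without day 8 replicate 3 the macrophage list had 14 rises, and the fitted change of Arg1 was 8.03, against 7.42 with all libraries. This unevenness was seen after the values were known and is given as a description, and the part that a small number of other cells had in it was not tested.

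**Figure D3:**
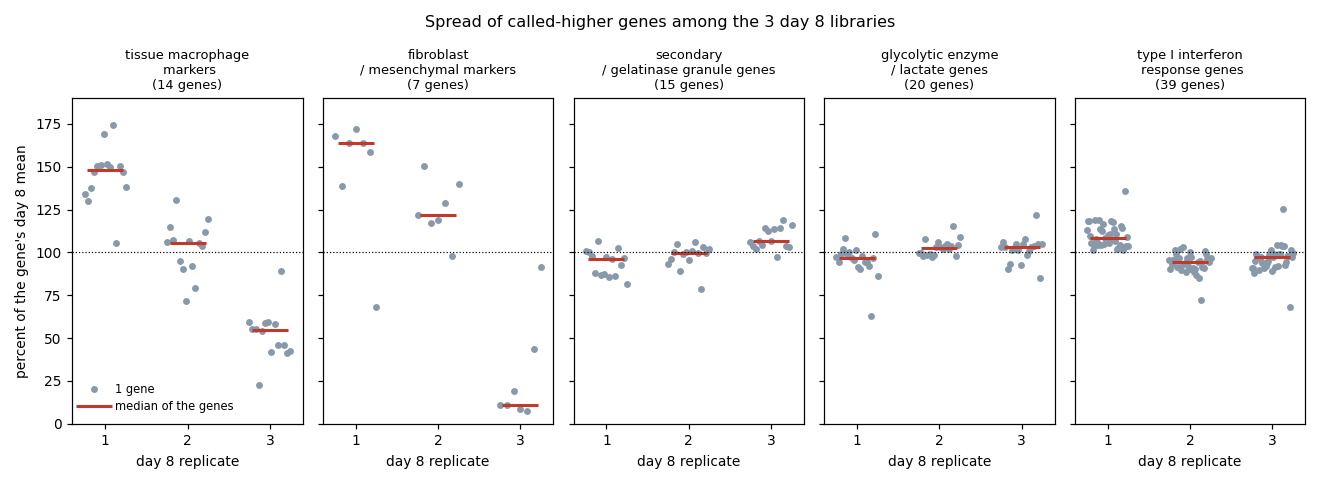
Each grey point is a gene called higher on day 8, placed at its level in 1 of the 3 day 8 libraries as a percent of its own day 8 mean (y axis), and the red bar is the median of the genes. The medians of macrophage and mesenchymal markers are low in replicate 3, at 54.7% and 10.9%, while those of granule, glycolysis and interferon genes stay near 100% in all 3 libraries.

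Markers of fibroblasts and other mesenchymal cells were detected on day 8. Of 8 tested 7 rose and 1 fell, with 5 rises in edgeR, 4 in DESeq2, and 1 of the 2 tested under a filter of at least 20. The edgeR and DESeq2 counts leave out day 8 replicate 1. The 7 called rises had medians of 164%, 122% and 10.9% of their day 8 mean in replicates 1, 2 and 3, and 6 of them were lowest in replicate 3. The exception was Thy1, which T cells also express, at 68.4%, 140.0% and 91.6%. Its call ended in edgeR and DESeq2 and when day 8 replicate 2 or 3, or day 0 replicate 1 or 3, was left out (adjusted p of 0.0549 to 0.188). Col3a1, a fibrillar collagen gene, had 70.0, 50.1 and 8.16 normalized counts on day 8 and 0, 0 and 0.995 on day 0. Sparc, a collagen-binding matrix gene, had 69.0, 54.2 and 3.06 on day 8 against 0 in every day 0 library, a call that ended in edgeR (adjusted p = 0.0502), and Col1a1, Col1a2 and Dcn were likewise called higher and lowest in day 8 replicate 3. The fibronectin gene Fn1, which monocytes also express, was far more abundant, with 3481, 2140.0 and 951 on day 8 and 86.7, 128 and 137 on day 0 (log2 4.05 ± 0.51, adjusted p = 1.54e-05). Of all 12 members, 2 were listed at 0 in every day 8 library and 4 in every day 0 library, and the defining genes Pdgfra, Pdgfrb, Lum and Postn did not pass the filter on low values. Members at or near 0 on day 0, such as Col3a1 and Sparc, passed that filter only through other days, so the count of rises is partly set by it. The summed level of the 12 genes was, mostly from Fn1 and Acta2, 4907, 3657 and 2026 on day 8 and 1849, 1754 and 1822 on day 0. Of the 12 genes with the largest relative rises, C1qa, C1qb, C1qc, Cd5l, Fcna, Prg4 and Saa3 are on the macrophage list.

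Among markers of other blood cells, those of eosinophils, B cells and non-classical monocytes fell more often than they rose. Of 12 eosinophil markers 10 fell and 0 rose (6 falls in DESeq2), with a summed level of 9155, 8918 and 8049 normalized counts on day 8 and 16137, 15961 and 17568 on day 0. Adgre4, a list member that is not specific to eosinophils, had 259, 266 and 252 on day 8 and 757, 730.2 and 849.6 on day 0 (log2 -1.58 ± 0.32, adjusted p = 0.00135). Its call ended in DESeq2 (log2 -1.52). Siglecf, the defining surface receptor of eosinophils, fell less (log2 -0.48 ± 0.080, adjusted p = 0.000231). Of 14 B cell markers 10 fell and 0 rose. The falls were 5 without day 8 replicate 3, day 0 replicate 1 or day 0 replicate 3, 6 without day 0 replicate 2, 5 in edgeR and 4 in DESeq2. Cr2 (-1.97 ± 0.24) and Bank1 (-1.11 ± 0.15) were lower beside Fcer2a and Fcmr. The summed level of the list was 2218, 2399.8 and 1648 on day 8 and 3809, 3669 and 3735 on day 0. Non-classical monocyte markers fell in 7 of 12 and rose in 0 (4 falls in DESeq2), while classical monocyte markers rose in 10 of 15 and fell in 1. Vcan (3.67 ± 0.40), Chil3 (1.17 ± 0.16) and Ly6c2 (0.71 ± 0.10) were higher among the classical ones. Chil3 is also counted among the secondary and gelatinase granule genes, and Fn1 is on both the classical monocyte and the mesenchymal list. Platelet markers gave 2 rises, Selp (1.52 ± 0.098) and F2rl2 (1.53 ± 0.20), and 1 fall, Itgb3, of 20, and Ppbp was not called. T cell markers gave 1 rise and 1 fall of 11, and NK cell markers 1 and 0 of 6. Plasma cell markers gave 2 and 0 of 8, and dendritic cell markers 2 and 2 of 7. The globin genes were at or near 0 in the 6 libraries, and 3 erythroid markers were tested. The part of these changes in cell markers in the gene groups above was not tested.

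The day 8 levels were set beside those of the other CT26 days, which share the day 0 libraries. At day 4 a smaller share of genes was called against day 0 (10.9%), and 13.4% were called between day 8 and day 4. For 7 genes both the day 4 and the day 8 change against day 0 were called with opposite signs and with a called difference between day 8 and day 4. Only Kit and Nid1 of these had changes of at least 1 at day 8 and 0.5 at day 4 on the log2 scale. Kit, the stem cell factor receptor of progenitors and mast cells, had 45.0, 62.4 and 74.5 normalized counts on day 8, against 7.08, 12.7 and 13.9 on day 0 (log2 2.35 ± 0.32, adjusted p = 3e-05). On day 4 it had 2.87, 6.04 and 5.97, below day 0 (log2 -1.04 ± 0.32, adjusted p = 0.0446), and day 8 was above day 4 by 3.39 ± 0.32, adjusted p = 1.38e-06. On day 11 it had 156, 289 and 215. Nid1, a basement membrane gene, had 43.0, 37.8 and 22.4 on day 8 and 16.8, 17.3 and 6.96 on day 0 (log2 1.32 ± 0.46, adjusted p = 0.0428), and 5.73, 2.01 and 4.97 on day 4. Its day 8 call ended when day 8 replicate 1 or 2, or any 1 of the day 0 replicates, was left out, with adjusted p of 0.0508 to 0.196 in limma. It also ended with all libraries at the same total (1.15), without the filter on low values (1.32) and with a pseudocount of 0.5 (1.35). In edgeR (0.80) and DESeq2 (0.82) Nid1 was not called either.

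**Figure D4:**
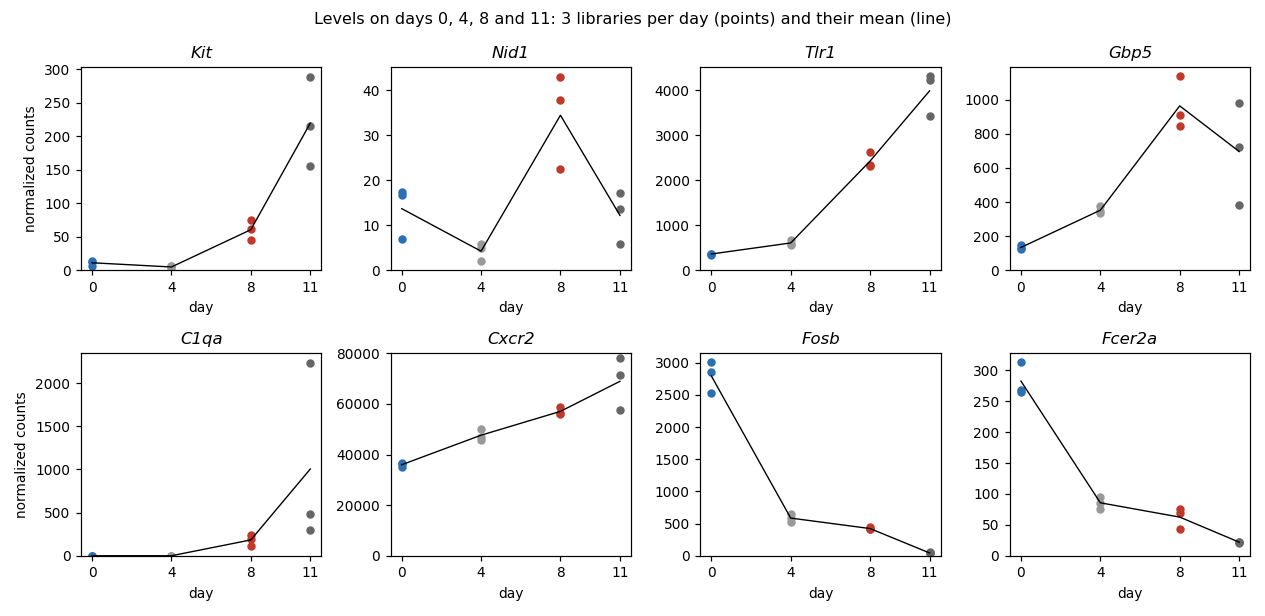
Points are the 3 libraries of each CT26 day, with normalized counts on the y axis, days on the x axis and a line through the means. Kit and Nid1 are lower on day 4 than on day 0 and higher on day 8, Gbp5 has its highest mean on day 8, C1qa is listed at 0 on days 0 and 4, and Fosb and Fcer2a are lower on every later day than on day 0.

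The B16 series, normalized separately, was set beside these calls. Of the 1619 CT26 genes called higher without overlap and tested in B16, 550 (34.0%) had all B16 day 8 libraries above all B16 day 0 libraries and 549 (33.9%) below, where over all genes 31.3% lay above and 32.0% below. Of the 1300 called lower, 489 (37.6%) lay above and 387 (29.8%) below. The B16 day 0 libraries stand apart, with 2.57% to 3.10% of their counts in the ribosomal RNA precursor, against 0.427% to 0.522% at B16 day 8. In the CT26 libraries that precursor took 0.735%, 0.586% and 0.740% on day 8 and 0.636%, 0.702% and 0.770% on day 0, so the 2 days of this comparison overlapped. Tlr1 had 102, 104 and 96.4 normalized counts at B16 day 8 and 161, 165 and 316 at B16 day 0, a fall, and Prok2 had 36.5, 39.3 and 28.7 at B16 day 8 and 198, 201 and 917 at B16 day 0. The difference between the 2 tumour models was not tested.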

How the data were processed

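RNA of blood immature myeloid cells was measured in 3 CT26 day 8 and 3 CT26 day 0 libraries. The deposited table holds normalized counts, per the file headers, 1 column per library and 1 table per tumour model. Per the submitters' processing notes, the tools were DESeq2 1.6.3, HTSeq 0.6.1p1, TopHat2 2.0.10 and cutadapt and the build mm10. The role of each, the annotation, the strand setting and any filter are not given there. Per the deposited values, a signal with 1 factor per library, every value was a whole multiple of 1 step within 0.001 (100% of values), and whole reads could be recovered in 8 of the 12 CT26 libraries. Antisense and overlapping genes cannot be told apart without strand. Values were analysed as log2(value + 1) in limma 3.58.1 (R 4.3.3) over the 12 CT26 libraries, with a mean per day, a trend of variance with the mean, Benjamini-Hochberg adjustment over all 11373 genes with a mean of at least 5, and a threshold of 0.05 on the adjusted p. The procedure was tested on simulated data. Libraries of a day differed beyond sampling noise, with chi-square per gene of 5.07 and 9.17 in the 2 pairs that could be tested, so none was counted as a copy of another.

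The members and gene lists were chosen with earlier results of these data known. Named genes are, among called genes without overlap, the 12 per direction with the largest moderated t and a mean of at least 50, the 12 with the largest fold change and a mean of at least 100, the 10 with the largest difference of means, leading list members, key genes, and genes reversed between days 4 and 8. Other list members named were chosen after their values were seen. Alternatives were other pseudocounts, filters and scalings, the 6 libraries alone, a replicate block, each day 8 and day 0 library and CT26 day 11 replicate 1 left out in turn, and edgeR 4.0.16 and DESeq2 1.42.0 on recovered reads. Gene positions are from GENCODE vM21.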

Additional observations from a re-analysis of the deposited data

Results flagged for a closer look

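The changes of 2 genes at day 8 differed from those at day 4 in the same tumour series, by the test of day 8 minus day 4 in limma. Kit was higher on day 8 than on day 4 by 3.39 ± 0.32, adjusted p = 1.38e-06 on the log2 scale, with all 3 day 8 libraries above and all 3 day 4 libraries below day 0. Nid1 was higher by 2.79 ± 0.46, adjusted p = 0.00045, while its day 8 call against day 0 ended in many settings, as given above. Both were chosen by a rule on these contrasts, so the values describe them.

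For 27 of the leading genes the B16 libraries moved opposite to the CT26 libraries, with no overlap between B16 day 8 and B16 day 0. Among CT26 genes called without overlap, 33.9% of those higher lay below in B16 and 37.6% of those lower lay above. Over all B16 genes 32.0% lay below and 31.3% above, so opposite moves were common. Leading genes that did not move opposite are not counted here. The difference between the tumour models was not tested, and the B16 day 0 libraries stand apart in their ribosomal RNA precursor. Of the genes higher at CT26 day 8, the B16 change on the log2 scale was -1.01 in Tlr1, -0.16 in Sema6b, -3.23 in Prok2, -2.50 in Lipg, -1.24 in Igfbp6, -0.74 in 6330416G13Rik, -0.52 in Wfdc17 and -0.60 in Upp1. It was -0.68 in Irg1, -0.19 in Entpd3, -0.81 in Saa3, -0.52 in S100a9, -0.82 in Lrg1, -0.25 in Grina and -0.39 in Mxd1. Of the genes lower at CT26 day 8, the B16 change was 0.62 in Anxa6, 1.65 in Itgb3, 1.02 in Ptgs2, 0.50 in Sept1, 2.08 in Selm and 1.72 in Egr1. It was 4.65 in Inpp5j, 2.76 in Trerf1, 1.83 in Gfi1b, 0.28 in Dusp1, 0.57 in Fos and 4.95 in Alox15.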

How the results depend on the processing

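The direction of the split between higher and lower calls depended on scaling. With every library at the same total, 1161 genes were higher and 2776 lower, 3937 in all, against 1712 and 1344 as deposited. Other pseudocounts, filters and TMM factors gave 2887 to 3174 calls, and the fit on the 6 day 8 and day 0 libraries alone gave 3949. Leaving out 1 day 8 or day 0 library gave 2189 to 2578 calls (1288 to 1511 higher and 901 to 1068 lower), and leaving out CT26 day 11 replicate 1 gave 3889 (2097 higher and 1792 lower). Recovered reads leave 2 day 8 and 2 day 0 libraries, without day 8 replicate 1 and day 0 replicate 3. They gave 1406 calls in edgeR (883 higher, 523 lower) and 1260 in DESeq2 (884 higher, 376 lower). A replicate block gave 2927 calls. Same-numbered libraries deviated with r of -0.079, -0.071 and -0.024 and different-numbered ones with r of -0.073 to 0.132. This check showed no pairing by number, but such correlations across genes cannot exclude a shared batch. Csf3r, with no call, changed sign at the same total (-0.017). Itgam did so at the same total (-0.16, then called lower), without day 8 replicate 3 (-0.011) and without day 0 replicate 1 (-0.040), over a range of -0.040 to 0.052 with any 1 library left out. The cause of these shifts was not tested. With edgeR the tissue macrophage list had 5 rises of 21 tested and with DESeq2 10 of 21, against 14 of 20 in limma. Both tools were run without day 8 replicate 1, where these genes were mostly highest within day 8. Of 297 named and tested genes, the call of 53 ended in at least 1 setting, 45 of them in edgeR and 33 in DESeq2, and 2 to 5 with any 1 day 8 or day 0 library left out. Calls that ended in both edgeR and DESeq2 were those of Adgre1, Alox15, Anxa5, Bbc3, Bhlhe41, Ccl2, Ccl24, Ccr7, Ctsl, Egr3, Folr2 and Hmox1. Lpl, Ltc4s, Mertk, Msr1, Nid1, Nt5e, Psap, Rgs1, Tbxas1, Tgtp2, Thy1, Top2a and Tyk2 were the others.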
